A study of Mus musculus with 12 samples.

Results

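The 44 genes described here are Myc and 43 factors that build ribosomes in and around the nucleolus, read from a table of 15555 genes. They were taken by gene symbol from a list drawn up by gene function, with earlier results of these data known, and all 44 had counts high enough to be tested. The list holds Myc, 8 nucleolar proteins and factors of ribosomal RNA gene transcription, 3 core proteins of box C/D particles, 4 core proteins of box H/ACA particles, 15 factors of small subunit assembly and 13 factors of large subunit assembly. RNA was sequenced from mouse bone-marrow-derived macrophages, which were grown from marrow until day 9 in medium with L-cell supernatant as a source of CSF-1 and taken as adherent cells. There were 12 libraries, 3 for each of 4 genotypes, which the labels give as wild type (WT), Cbl-/-, Cbl-b-/- and both Cbl-/- and Cbl-b-/- (DKO). The missing genes encode ubiquitin ligases of the same family, which tag active tyrosine kinases for removal. The labels do not give the age, sex or number of the mice, the kind of allele, or whether replicates came from separate animals, and they say only that RNA was pooled at equal concentrations. The p-values set the difference between genotypes against the spread of the libraries within a genotype, and that spread may be technical.

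Ribosome production starts in the nucleolus, where RNA polymerase I copies the ribosomal RNA genes into a long precursor. Small nucleolar ribonucleoproteins guide chemical modification of this precursor, box C/D particles for methylation and box H/ACA particles for pseudouridylation, while assembly factors fold, cut and package it into the small and large subunits. The transcription factor Myc binds the E-box CACGTG and is known to raise transcription of many of these genes in growing cells, and CSF-1 is known to induce Myc in macrophages.

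Total counts were 21048103 to 43946503 per library. Levels are given as CPM, the count over the library size after scaling by TMM (a factor per library that assumes most genes do not differ), so every level is relative to the rest of the RNA. In cultures sequenced in bulk, fewer cells that use a gene and less of its RNA per cell cannot be told apart. Cbl stood at 140 ± 3.4 CPM (SD, n = 3) in WT, 51.5 ± 2.3 in Cbl-/-, 139 ± 3.0 in the libraries labelled Cbl-b-/- and 37.6 ± 3.1 in those labelled DKO. Cblb stood at 59.4 ± 3.5, 68.5 ± 0.69, 52.8 ± 2.9 and 71.7 ± 3.2 CPM in the same order. The counts therefore bear out the Cbl labels and do not bear out the loss of Cblb, although an allele that disrupts the protein and leaves its RNA would not be seen in counts summed over the gene. The 14 macrophage markers were all present and summed to at least 18100 CPM in every library.

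DKO 3 stood apart from DKO 1 and DKO 2 in a way that followed base composition. Its deviation from its genotype mean had a Pearson r of -0.752 with the GC content of the longest transcript over 10132 genes, and of -0.694 over the 44 members. These points share 1 library and are given as a description. Of the members, 20 were highest in DKO 3 within their genotype and had a median GC content of 45.4%, while 19 were lowest there and had a median of 53.9%. The counts of members called in the comparisons with DKO are therefore given below with and without DKO 3.

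**Figure D1:**
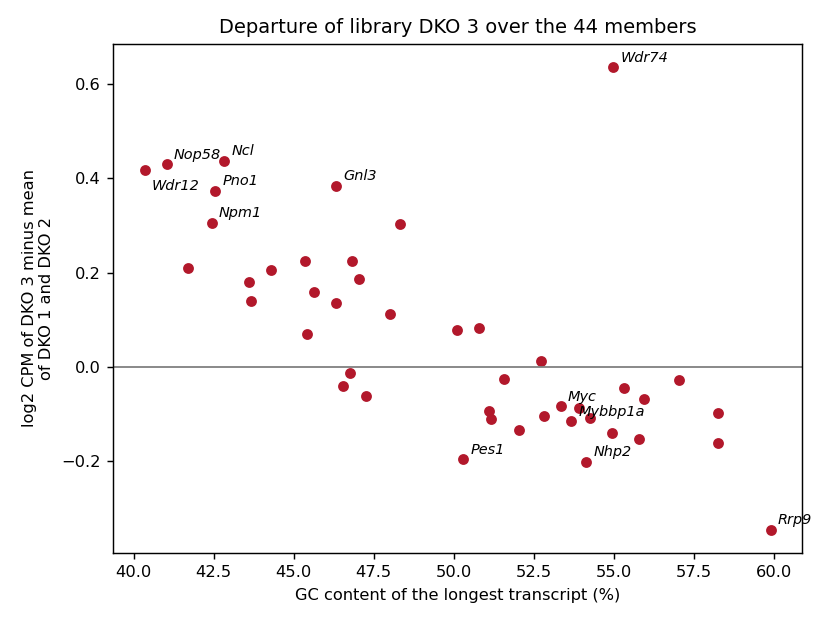
Departure of library DKO 3 from the other libraries labelled DKO for each of the 44 members (log2 CPM of DKO 3 minus the mean of DKO 1 and DKO 2, vertical axis) against the GC content of the longest annotated transcript (percent, horizontal axis). Each point is 1 gene; Ncl and Npm1 lie at the upper left, Rrp9 at the lower right, and Wdr74 apart from the trend.

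Myc rose in Cbl-/- macrophages and in those labelled DKO. Its level was 65.4, 66.5 and 66.7 CPM in WT, 78.0, 82.5 and 79.7 in Cbl-/-, 66.6, 75.1 and 77.5 in the libraries labelled Cbl-b-/-, and 77.4, 79.8 and 74.1 in those labelled DKO. All Cbl-/- and DKO libraries lay above all WT libraries, while Cbl-b-/- 1 lay inside the WT range and the other 2 above it. Relative to WT, Cbl-/- had a log2 fold change of 0.27 with an SE of 0.06 (adjusted p = 0.0076). The libraries labelled Cbl-b-/- stood 0.14 above WT with an SE of 0.06 (adjusted p = 0.62), and those labelled DKO 0.22 above with an SE of 0.06 (adjusted p = 0.0098). All adjusted p-values here are edgeR quasi-likelihood p-values after Benjamini-Hochberg correction across 12671 genes, called at 0.05. The call in Cbl-/- held under all 17 alternatives and the call in DKO under 16 of 17, with an adjusted p of 0.083 when libraries were scaled by total counts alone. Myc did not pass in DKO against Cbl-/- (log2 fold change -0.05, 95% interval -0.18 to 0.07, adjusted p = 0.55). Myc lies at chr15:61985391-61990374 on the plus strand (GRCm38).

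The E-box was searched in RefSeq promoters of GRCm38.p6, which run from 250 bases before the start of a gene to 50 bases after it. CACGTG is its own reverse complement, so 1 search covers both strands. A promoter was matched for 37 of the 44 members, and Rrp12, Myc, Npm1, Rrs1, Bop1, Tcof1 and Fbl had none in the table used. The motif was in the promoters of 9 of the 37 (24.3%), namely Nop2, Ltv1, Utp20, Pes1, Pno1, Mybbp1a, Tsr1, Utp18 and Wdr43, beside 8.09% of all genes and 11.4% of the genes in the count table. It lay after the start in 7 of the 9 and before it in 2. Below are the promoters of Mybbp1a (chr11:72441077-72441376, plus strand), Utp20 (chr10:88826765-88827064, minus strand), Ltv1 (chr10:13193088-13193387, minus strand) and Wdr43 (chr17:71615965-71616264, plus strand), read 5′ to 3′ with the motif in capitals. Mybbp1a, Utp20 and Ltv1 are the members with the motif that rose in both Cbl-/- and DKO, and Wdr43 rose in DKO. Dkc1, Heatr1 and Nop16 also rose in both, and their promoters did not hold the motif. The motif begins 40 bases after the start in Mybbp1a, 37 in Utp20, 28 in Ltv1 and 17 in Wdr43. A match is a run of letters and does not show that a factor binds there.
Mybbp1a: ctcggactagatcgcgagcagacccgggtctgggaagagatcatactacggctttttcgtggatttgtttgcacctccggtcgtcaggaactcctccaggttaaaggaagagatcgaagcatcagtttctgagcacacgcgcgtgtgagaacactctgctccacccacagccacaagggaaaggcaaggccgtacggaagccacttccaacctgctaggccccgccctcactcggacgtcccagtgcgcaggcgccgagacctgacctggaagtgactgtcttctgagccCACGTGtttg
Utp20: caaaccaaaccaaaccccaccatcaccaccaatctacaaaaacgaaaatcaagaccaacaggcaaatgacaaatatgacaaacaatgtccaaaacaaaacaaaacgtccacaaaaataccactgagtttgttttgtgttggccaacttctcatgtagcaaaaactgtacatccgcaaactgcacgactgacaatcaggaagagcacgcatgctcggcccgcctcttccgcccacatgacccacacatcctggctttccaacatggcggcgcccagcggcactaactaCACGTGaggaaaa
Ltv1: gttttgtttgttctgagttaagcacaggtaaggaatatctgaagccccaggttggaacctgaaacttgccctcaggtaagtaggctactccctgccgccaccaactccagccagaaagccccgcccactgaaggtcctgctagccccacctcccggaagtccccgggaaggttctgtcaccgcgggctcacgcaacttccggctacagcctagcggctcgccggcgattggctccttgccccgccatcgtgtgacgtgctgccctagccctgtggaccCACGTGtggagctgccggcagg
Wdr43: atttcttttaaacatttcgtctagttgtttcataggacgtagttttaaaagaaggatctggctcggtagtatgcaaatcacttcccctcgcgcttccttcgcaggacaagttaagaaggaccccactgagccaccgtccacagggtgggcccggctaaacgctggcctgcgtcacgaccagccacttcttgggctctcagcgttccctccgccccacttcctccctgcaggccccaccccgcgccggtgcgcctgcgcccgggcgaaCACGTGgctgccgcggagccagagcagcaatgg

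In Cbl-/- macrophages 7 of the 44 members rose against WT and none fell, beside 5.68% of all genes tested that were called higher and 4.19% called lower. The 7 were Myc, Mybbp1a, Dkc1, Utp20, Ltv1, Heatr1 and Nop16. The median log2 fold change over the 44 was 0.15, beside -0.01 over all genes, and 40 of the 44 were above 0. In 33 members all 3 Cbl-/- libraries lay above all 3 WT libraries, which was so for 19% of all genes. The median of the members against the WT mean was 0.14, 0.14 and 0.15 on the log2 scale in the 3 Cbl-/- libraries. The changes were small, at most 1.24-fold among the 7 called.

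In the libraries labelled DKO 29 of the 44 rose against WT and none fell, beside 19.1% of all genes called higher and 16.3% called lower. The median log2 fold change was 0.24 over the members and 0.00 over all genes, and 43 of 44 members were above 0. All 3 DKO libraries lay above all 3 WT libraries in 33 members, beside 23.7% of all genes. Without DKO 3 the count was again 29, of which 26 were the same genes, and with the GC trend of each library removed it was 27, of which 26 were the same. Of all genes, 20% and 19.2% were then called higher. Scaling by total counts alone lowered the count to 15, beside 14% of all genes called higher. Of the 29 calls, 15 held under all 17 alternatives. The comparisons of Cbl-/- and DKO share the WT libraries.

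In the libraries labelled Cbl-b-/- none of the 44 passed against WT, beside 0.489% of all genes called in either direction. The median log2 fold change was 0.03. An unadjusted p under 0.05 was found for 3 of the 44 members, beside 958 of the 12671 genes tested. DESeq2 and limma voom also called 0 members. Voom with sample quality weights called 1, beside 1.75% of all genes. The interval for Myc ran from 0.01 to 0.27 on the log2 scale, so the absence of a call does not show that its level was the same. Besides Myc, the member with the smallest p in each role was Mybbp1a (log2 fold change 0.08, SE 0.05, adjusted p = 0.84), Fbl, Nhp2, Wdr74 and Rrp9, a small nucleolar RNA-binding protein (0.24, SE 0.13, adjusted p = 0.74).

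**Figure D2:**
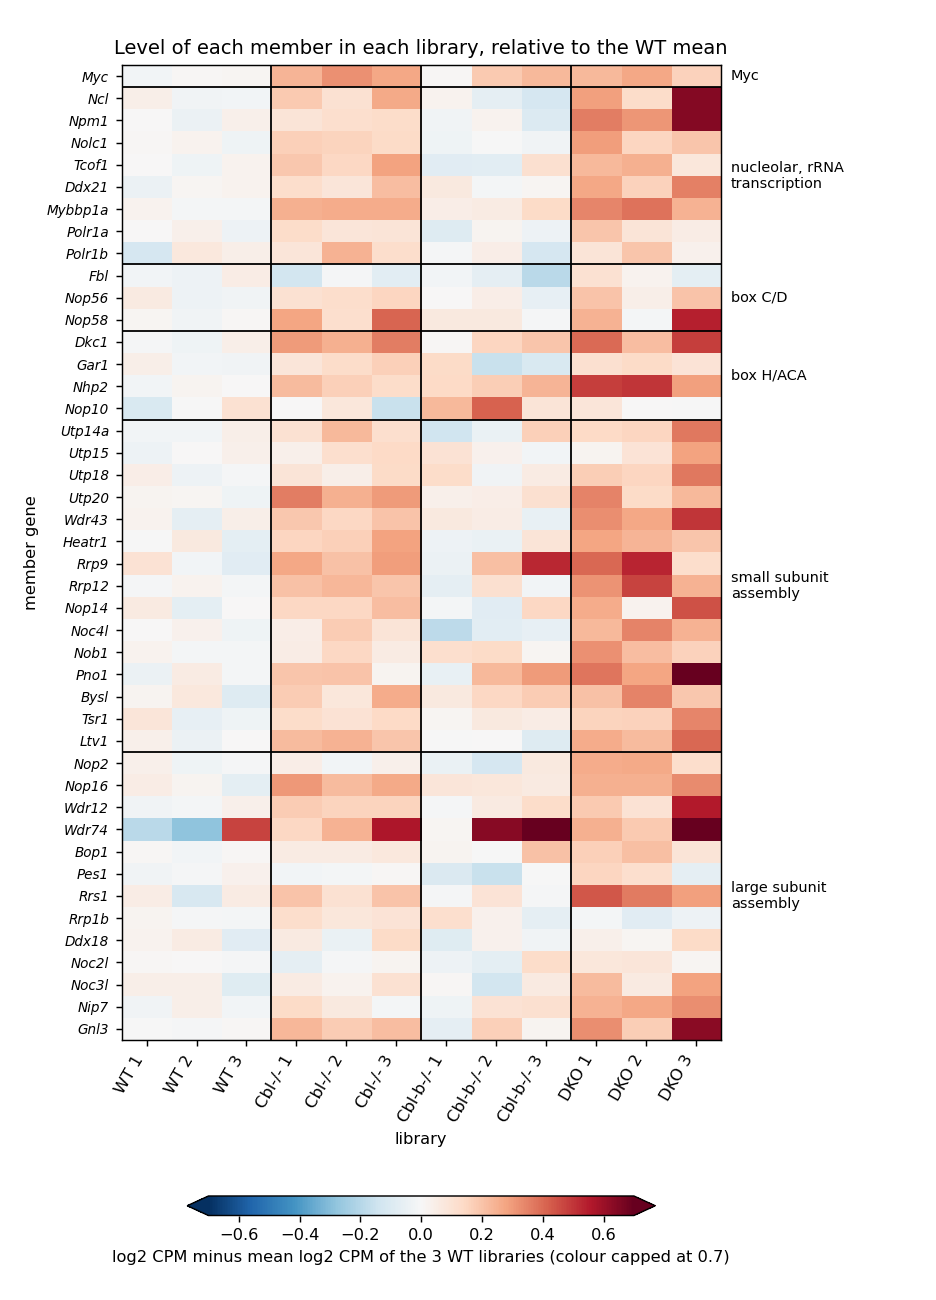
Level of each of the 44 members (rows, by role) in each of the 12 libraries (columns), as log2 CPM minus the mean log2 CPM of the 3 WT libraries; red is higher, blue lower, and the colour is capped at 0.7. The Cbl-/- and DKO columns are mostly red, with members above the WT mean in 39 to 41 of 44 and 40 to 43 of 44, while the Cbl-b-/- columns have 22 to 28.

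Among the nucleolar proteins Mybbp1a, a repressor of transcription that resides in the nucleolus and takes part in ribosomal RNA processing, rose in both. Its level was 156, 152 and 152 CPM in WT, 182, 184 and 184 in Cbl-/-, 158, 159 and 168 in the libraries labelled Cbl-b-/- and 195, 199 and 182 in those labelled DKO. The Cbl-/- and DKO libraries all lay above every WT and Cbl-b-/- library. Cbl-/- exceeded WT by 0.26 on the log2 scale (SE 0.05, adjusted p = 0.0036) and DKO exceeded it by 0.32 (SE 0.05, adjusted p = 0.00013), and both calls held under all 17 alternatives. The other 7 nucleolar members did not pass in Cbl-/-. In all 8 the 3 Cbl-/- libraries lay above WT, which was so for 19% of all genes.

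Npm1, the abundant nucleolar chaperone nucleophosmin, rose in DKO. Per kilobase of annotated exon it was the highest of the 44 in WT, at 153 CPM per kb, followed by Noc2l at 48.7, Nhp2 at 46.8 and Ncl at 44.7, while Wdr12 was lowest at 2.84. Its level was 410, 398 and 419 CPM in WT, 435, 444 and 447 in Cbl-/-, 403, 417 and 383 in the libraries labelled Cbl-b-/- and 525, 506 and 637 in those labelled DKO. The DKO libraries lay above all others, and DKO 3 was highest. The log2 fold change in DKO was 0.44 (SE 0.07, adjusted p = 0.00013), which is 36.0% higher, and it held under all 17 alternatives with values of 0.30 to 0.51. In Cbl-/- it was 0.11 (SE 0.07, adjusted p = 0.41). Npm1 lies at chr11:33152287-33163206 on the minus strand, and processed copies of it elsewhere in the genome could take up some of its reads.

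Of the other nucleolar members, Ddx21, an RNA helicase (log2 fold change 0.26, SE 0.06, adjusted p = 0.0022), and Nolc1, a chaperone of small nucleolar particles (0.21, SE 0.05, adjusted p = 0.0042), rose in DKO. Ncl, nucleolin, and Tcof1, a scaffold for ribosomal RNA transcription, also rose and are named after their values were seen. Ncl was 469, 447 and 449 CPM in WT and 555, 497 and 711 in DKO, so all 3 DKO libraries were above WT and DKO 3 was the highest. The Ncl log2 fold change was 0.37 (SE 0.10, adjusted p = 0.0071) and held under all 17 alternatives. Tcof1 was 101, 98.4 and 102 CPM in WT and 118, 119 and 106 in DKO, all above WT. In log2 terms it stood 0.19 higher with an SE of 0.06 (adjusted p = 0.033). The Tcof1 call was lost under 7 of 17 alternatives, among them leaving out any 1 WT library, DKO 1 or DKO 2, with an adjusted p of up to 0.21. Polr1a and Polr1b, the 2 largest subunits of RNA polymerase I, did not pass in any of the comparisons with WT, with log2 fold changes of 0.10 and 0.15 in Cbl-/- and 0.11 and 0.11 in DKO.

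None of the 3 box C/D proteins passed in any comparison. Nop56, a partner of Nop58 in the particle, was 118, 110 and 111 CPM in WT, 121, 123 and 125 in Cbl-/-, 113, 116 and 108 in the libraries labelled Cbl-b-/- and 129, 116 and 129 in DKO. The Cbl-/- libraries lay above WT, and DKO 2 lay inside the WT range. Nop58, a scaffold protein of these particles, was 82.3, 80.1 and 82.0 CPM in WT, 98.6, 88.4 and 108 in Cbl-/-, and 96.3, 80.6 and 119 in DKO. The Cbl-/- libraries lay above WT, while DKO 2 lay inside the WT range. The rise over WT in log2 terms was 0.27 in Cbl-/- (SE 0.10, adjusted p = 0.13) and 0.28 in DKO (SE 0.10, adjusted p = 0.051), and neither passed. Fbl, the methyltransferase, was at 39.9 ± 1.3 CPM in WT and 40.5 ± 2.5 in DKO (SD, n = 3), and the change from WT to the libraries labelled Cbl-b-/- was -0.09 on the log2 scale (SE 0.07, adjusted p = 0.88).

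Of the 4 box H/ACA proteins Dkc1 rose in Cbl-/- and in DKO, and Nhp2 passed in DKO. Dkc1, the pseudouridine synthase dyskerin, was 34.9, 34.3 and 36.1 CPM in WT, 43.2, 41.7 and 45.0 in Cbl-/- and 46.1, 40.7 and 49.1 in DKO. In Cbl-/- it rose by 0.30 on the log2 scale (SE 0.07, adjusted p = 0.014), a call lost without WT 1, WT 2 or Cbl-/- 3, with an adjusted p of up to 0.073. In DKO it was 0.37 (SE 0.07, adjusted p = 0.00094). Nhp2, a core RNA-binding protein of the particle, was 52.8, 54.3 and 53.8 CPM in WT and 74.9, 76.0 and 65.5 in DKO, with DKO 3 the lowest of its group and above every other library. The Nhp2 log2 fold change was 0.43 (SE 0.06, adjusted p = 5.6e-05), and Nhp2 was also 0.25 higher than in Cbl-/- (SE 0.06, adjusted p = 0.0057). In the libraries labelled Cbl-b-/- Nhp2 was 59.2, 60.5 and 63.2 CPM, all above WT, and the difference of 0.18 (log2, SE 0.06, adjusted p = 0.39) did not pass. Gar1 and Nop10, the other core proteins, did not pass.

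Small subunit assembly was the role with the largest share called in DKO, 14 of 15, all but Utp15, beside 19.1% of all genes called higher. Only 5 of these 14 calls, those of Ltv1, Noc4l, Pno1, Rrp12 and Wdr43, held under all 17 alternatives. The calls of Utp14a and Nop14 were lost when any 1 of the WT libraries was left out, and with the GC trend removed (adjusted p up to 0.35 and 0.30). Those of Rrp9, Tsr1, Utp18, Nob1 and Bysl were each lost when at least 1 single library was left out, and those of Heatr1 and Utp20 when libraries were scaled by total counts. The 14 were Utp14a, Utp18, Utp20, Wdr43, Heatr1, Rrp9, Rrp12, Nop14, Noc4l, Nob1, Pno1, Bysl, Tsr1 and Ltv1. The log2 fold changes of the 15 in DKO ran from 0.14 to 0.46. In Cbl-/- Utp20, Ltv1 and Heatr1 rose. No test compared the roles with one another.

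Utp20, a large component of the small subunit processome, was 72.0, 71.5 and 69.4 CPM in WT, 91.1, 84.4 and 87.3 in Cbl-/-, 72.6, 73.3 and 76.6 in the libraries labelled Cbl-b-/- and 90.2, 78.0 and 83.0 in DKO. In Cbl-/- it rose by 0.30 (log2, SE 0.06, adjusted p = 0.0031), called under all 17 alternatives, and in DKO by 0.24 (SE 0.06, adjusted p = 0.0053). Ltv1, a late assembly factor, was 40.6, 38.5 and 39.6 CPM in WT, 46.0, 46.8 and 45.2 in Cbl-/- and 47.4, 46.1 and 52.2 in DKO. All Cbl-/- and DKO libraries lay above WT. In Cbl-/- Ltv1 (log2 fold change 0.22, SE 0.06, adjusted p = 0.035) and Heatr1 (0.20, SE 0.06, adjusted p = 0.048), a processome protein that also acts in ribosomal RNA transcription, lost their calls when any of the WT or Cbl-/- libraries was left out, with an adjusted p of up to 0.14 and 0.23.

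Pno1, which binds the small subunit with the endonuclease Nob1, was 41.9, 44.8 and 42.8 CPM in WT and 55.9, 52.2 and 70.0 in DKO. Its log2 fold change in DKO was the largest of the role, 0.46 (SE 0.10, adjusted p = 0.0024). Wdr43, a processome protein, was 62.3, 58.7 and 63.0 CPM in WT and 76.8, 74.0 and 86.9 in DKO, a rise of 0.37 (log2, SE 0.06, adjusted p = 0.00031). Both were highest in DKO 3 and higher than WT in all 3 DKO libraries. Rrp12, an export and assembly factor, was 32.3, 33.0 and 32.2 CPM in WT and 40.5, 45.1 and 38.4 in DKO, with DKO 3 lowest. On the log2 scale Rrp12 rose by 0.35 (SE 0.07, adjusted p = 0.0011) and Ltv1 by 0.30 (SE 0.06, adjusted p = 0.0014).

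**Figure D3:**
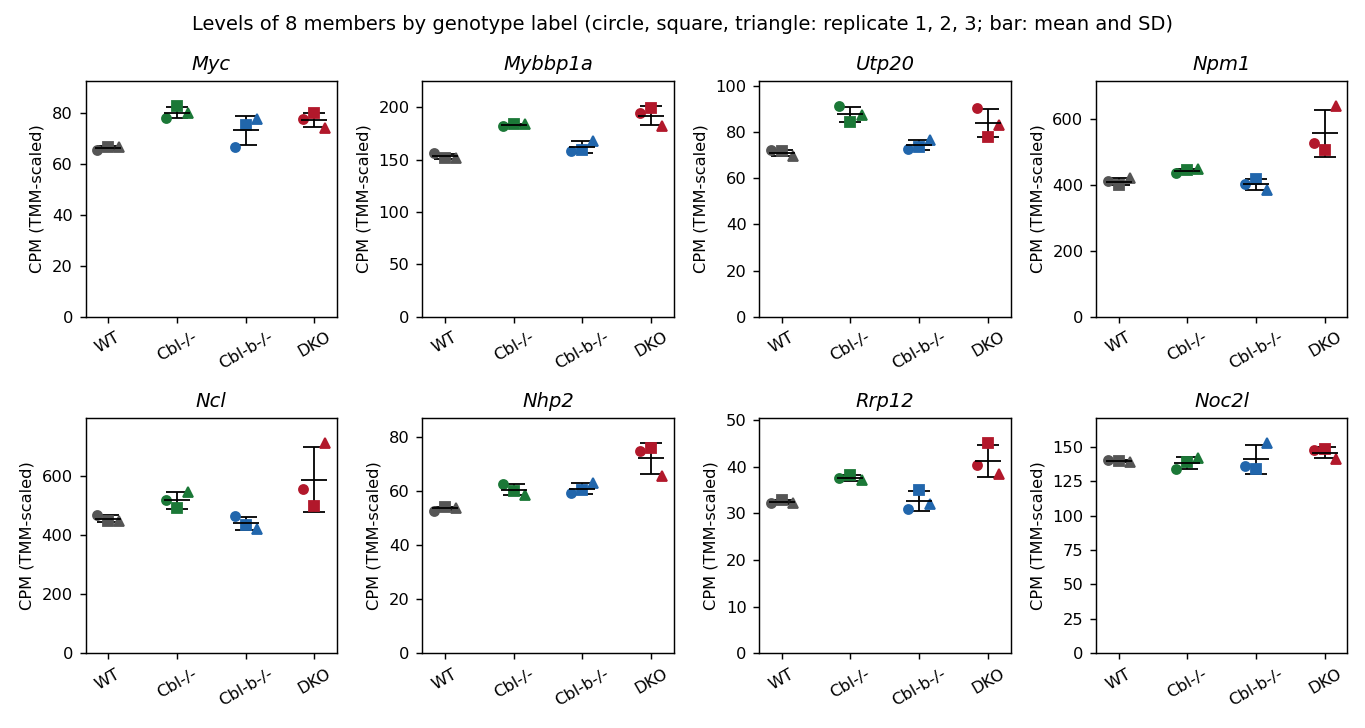
Level of 8 members in CPM (vertical axis, from 0) by genotype label; each symbol is 1 library (circle, square and triangle for replicates 1, 2 and 3) and the bar is the mean with SD. All Cbl-/- and DKO libraries lie above WT for Myc, Mybbp1a and Utp20, while Npm1 and Nhp2 separate DKO from the other genotypes and Noc2l moves little.

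Of the 13 large subunit factors 6 rose in DKO, Nop2, Nop16, Wdr12, Rrs1, Nip7 and Gnl3, beside 19.1% of all genes called higher. Nop16 alone rose in Cbl-/-, beside 5.68% of all genes. Nop16 was 26.3, 25.7 and 24.3 CPM in WT, 31.4, 29.6 and 30.6 in Cbl-/- and 30.2, 30.2 and 32.0 in DKO. In Cbl-/- it rose by 0.26 (log2, SE 0.06, adjusted p = 0.013), lost without WT 3, Cbl-/- 1 or Cbl-/- 3 (adjusted p up to 0.072), and 0.27 (SE 0.06, adjusted p = 0.003) in DKO. Rrs1, which helps recruit the 5S particle, was 42.7, 38.1 and 42.7 CPM in WT and 55.5, 52.9 and 50.2 in DKO (log2 fold change 0.36, SE 0.07, adjusted p = 0.00044). Gnl3, nucleostemin, was 43.4, 43.2 and 43.7 CPM in WT and 54.5, 49.0 and 67.4 in DKO (0.39, SE 0.09, adjusted p = 0.0032), and Nip7, a further assembly factor, rose by 0.28 (SE 0.07, adjusted p = 0.004). The DKO libraries lay above WT in each of these.

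Bop1, Pes1, Ddx18, Noc2l, Noc3l, Rrp1b and Wdr74 did not pass in any comparison with WT. Bop1 and Pes1 form a complex with Wdr12, which did rise in DKO (log2 fold change 0.30, SE 0.09, adjusted p = 0.019), a call lost without WT 1, WT 2 or DKO 3. Wdr74 spanned 9.80 to 16.6 CPM in WT and had the largest standard error of the 44 (0.26 in DKO against WT); the change from WT to the libraries labelled Cbl-b-/- was 0.50 on the log2 scale (SE 0.26, adjusted p = 0.75). Rrp1b was the only member below 0 in DKO, at -0.04 (SE 0.06, adjusted p = 0.64), with 29.6 ± 0.71 CPM against 30.5 ± 0.36 in WT (SD, n = 3). The genes of this paragraph, with Polr1a, Polr1b, Gar1, Nop10, Utp15 and the lists of calls above, are named so that every member is accounted for.

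**Figure D4:**
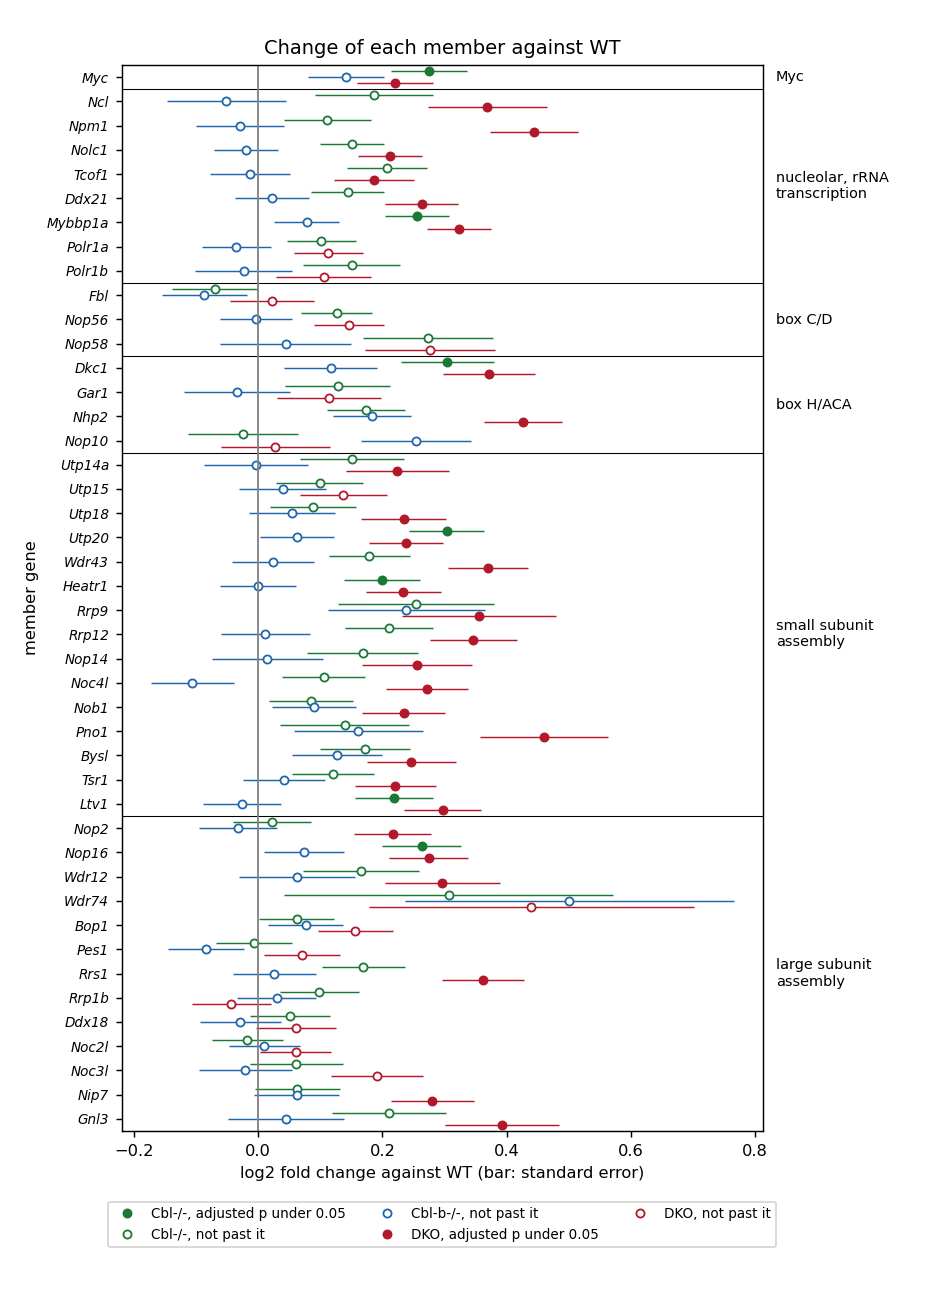
Log2 fold change of each of the 44 members against WT (points, with the standard error as bars) in Cbl-/- (green), libraries labelled Cbl-b-/- (blue) and libraries labelled DKO (red); filled points passed an adjusted p of 0.05. There are 7 filled green, 0 filled blue and 29 filled red points, and the small subunit factors are nearly all filled in red.

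The libraries labelled DKO were compared with each single label. Against Cbl-/- 7 members were higher and none lower, beside 16% of all genes called higher and 13.6% called lower, so the members' share was close to the background. These were Npm1 (log2 fold change 0.33, SE 0.07, adjusted p = 0.002), Nhp2, Pno1 (0.32, SE 0.10, adjusted p = 0.027), Wdr43 (0.19, SE 0.07, adjusted p = 0.035), Nip7 (0.22, SE 0.07, adjusted p = 0.023), Nop2, an RNA methyltransferase (0.19, SE 0.06, adjusted p = 0.027), and Rrs1 (0.19, SE 0.07, adjusted p = 0.037). Of the box C/D proteins, Fbl had the smallest p (0.09, SE 0.07, adjusted p = 0.34). Npm1 alone kept its call under all alternatives. Scaled by total counts the median of the members was -0.01 in place of 0.08, with 1 member called higher and 1, Rrp1b, lower, so the direction of the list depends on the scaling. Without DKO 3 the count was 9, of which 5 were the same genes, since Pno1 and Wdr43 lost their calls and 4 others gained one. The count fell to 2 without Cbl-/- 3 and to 3 without Cbl-/- 2. Of all genes, 17.8% were called higher without DKO 3, 11.9% without Cbl-/- 3, 12% without Cbl-/- 2 and 10.7% with total counts.

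Against the libraries labelled Cbl-b-/- 24 members were higher in DKO and none lower, beside 17.7% of all genes called higher and 15.6% called lower. Npm1 (log2 fold change 0.47, SE 0.07, adjusted p = 7.9e-05), Ncl (0.42, SE 0.10, adjusted p = 0.0031), Mybbp1a (0.25, SE 0.05, adjusted p = 0.0016) and Nolc1 (0.23, SE 0.05, adjusted p = 0.0025) led the nucleolar proteins. The small subunit factors with the smallest adjusted p were Noc4l (0.38, SE 0.07, adjusted p = 0.00035), Wdr43 (0.35, SE 0.07, adjusted p = 0.00064), Ltv1 (0.32, SE 0.06, adjusted p = 0.00079) and Rrp12 (0.33, SE 0.07, adjusted p = 0.0016). Among the large subunit factors these were Rrs1 (0.34, SE 0.07, adjusted p = 0.00093), Nop2 (0.25, SE 0.06, adjusted p = 0.0057), Gnl3 (0.35, SE 0.09, adjusted p = 0.008) and Nip7 (0.22, SE 0.07, adjusted p = 0.021). Both called box H/ACA proteins, Nhp2 (0.24, SE 0.06, adjusted p = 0.0066) and Dkc1 (0.25, SE 0.07, adjusted p = 0.014), were higher in every DKO library than in any labelled Cbl-b-/-. Nop56 (0.15, SE 0.06, adjusted p = 0.054) and Myc (0.08, SE 0.06, adjusted p = 0.34) did not pass. Ltv1, Mybbp1a, Ncl, Noc4l, Npm1, Rrp12, Rrs1 and Wdr43 were called under all alternatives. Without DKO 3 the count was 22, of which 19 were the same genes. Scaled by total counts 9 members were called higher and 1 lower, and with the GC trend of each library removed 15 were higher and 1 lower. The lower one in both was Nop10. Of all genes, 18.8% were called higher without DKO 3, 12.2% with total counts and 16.5% with the GC trend removed.

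Between the single labels, 4 members were lower in the libraries labelled Cbl-b-/- than in Cbl-/- and none was higher, beside 4.12% of all genes called lower and 3.25% called higher. These were Tcof1 (log2 fold change -0.22, SE 0.06, adjusted p = 0.049), Mybbp1a (-0.18, SE 0.05, adjusted p = 0.045), Utp20 (-0.24, SE 0.06, adjusted p = 0.021) and Ltv1 (-0.25, SE 0.06, adjusted p = 0.025). Those with the smallest p in the other roles did not pass, namely Myc (-0.13, SE 0.06, adjusted p = 0.23), Nop56 (-0.13, SE 0.06, adjusted p = 0.20), Nop16 (-0.19, SE 0.06, adjusted p = 0.089) and Nop10 (0.28, SE 0.09, adjusted p = 0.071). Nop10 was 31.3, 35.5 and 28.4 CPM in the libraries labelled Cbl-b-/- and 26.7, 28.2 and 24.0 in Cbl-/-, so all 3 of the former lay above the latter. The median over the 44 was -0.13, and 37 were below 0. No call held under all alternatives, and the count was 0 without Cbl-/- 1, Cbl-/- 3 or Cbl-b-/- 2. The share of all genes called in either direction was then 4.13%, 4.34% and 5.28%, beside 7.37% in the main fit.

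Whether the DKO libraries departed from the sum of the 2 single-label effects on the log2 scale was tested as the DKO mean less both single-label means plus the WT mean. Npm1 was the only member to pass, 0.36 above the sum (SE 0.10, adjusted p = 0.021), beside 8.39% of all genes called higher and 7.28% called lower. That call was lost without WT 3, Cbl-/- 1 or Cbl-b-/- 3 and when scaled by total counts (adjusted p 0.054 to 0.069), and without DKO 3 the value was 0.25 (adjusted p = 0.0038). Without DKO 3 the count was 4, all higher, beside 11.3% of all genes called higher. Myc was 0.20 below the sum (log2 value -0.20, SE 0.09, adjusted p = 0.15). In the other roles Fbl (0.18, SE 0.10, adjusted p = 0.24), Nop10 (-0.20, SE 0.13, adjusted p = 0.32), Noc4l (0.27, SE 0.09, adjusted p = 0.061) and Nop2 (0.23, SE 0.09, adjusted p = 0.099) had the smallest p and did not pass.

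Lists of related genes were read in the same fit. None of 65 other ribosome assembly factors passed in Cbl-/- (median log2 fold change 0.08) or in the libraries labelled Cbl-b-/- (0.03), while 22 (33.8%) rose and 1 (1.54%) fell in DKO (0.16), beside the 19.1% and 16.3% of all genes given above for DKO. Mrto4 (0.35, SE 0.08, adjusted p = 0.0018), Emg1 (0.33, SE 0.06, adjusted p = 0.00019) and Pwp2 (0.27, SE 0.06, adjusted p = 0.004) led these. The 22 became 9 without WT 1 or WT 2 and 12 without WT 3, and 9 when scaled by total counts, so this count rests on the WT libraries and the scaling. The share of all genes called higher was 14.3% without WT 1, 14.5% without WT 2, 16.3% without WT 3 and 14% with total counts. Of 28 subunits and factors of RNA polymerases I and III, 6 (21.4%) rose and 1 (3.57%) fell in DKO, so the share that rose was close to the background. The median log2 fold change of the 28 was 0.00, with 14 above and 14 below 0. Among those called were Polr1c (0.41, SE 0.08, adjusted p = 0.0011) and Polr1d (0.26, SE 0.06, adjusted p = 0.002), shared by both polymerases, and Maf1, a repressor of RNA polymerase III, which fell by 0.32 (SE 0.08, adjusted p = 0.0044). None of the 28 passed in the other comparisons with WT, and in DKO the count of increases was 3 without WT 1 or WT 3, and 2 when scaled by total counts.

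Among 12 genes of the Myc network, which holds partners and antagonists of Myc, Mxd4, a repressor that competes with Myc for Max, fell in both. Mxd4 was 38.0 ± 1.1 CPM in WT, 23.5 ± 1.2 in Cbl-/-, 34.1 ± 1.8 in the libraries labelled Cbl-b-/- and 24.3 ± 3.6 in DKO (SD, n = 3), with log2 fold changes of -0.69 (SE 0.09, adjusted p = 6.5e-05) and -0.65 (SE 0.09, adjusted p = 3.3e-05). Mxi1 (-0.43, SE 0.08, adjusted p = 0.00052) and Mxd3 (-0.44, SE 0.11, adjusted p = 0.0035), of the same family, fell in DKO. There 2 network genes (16.7%) rose and 5 (41.7%) fell, beside 19.1% of all genes called higher and 16.3% called lower. Mxd1, another member, rose in Cbl-/- (0.61, SE 0.12, adjusted p = 0.0025). In Cbl-/- 1 network gene (8.33%) rose and 1 (8.33%) fell, beside 5.68% and 4.19% of all genes. None of the 12 passed in the libraries labelled Cbl-b-/-.

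Of 34 Myc target genes of growth and metabolism, 4 (11.8%) rose and 1 (2.94%) fell in Cbl-/-, beside 5.68% of all genes called higher and 4.19% called lower. None of the 34 passed in the libraries labelled Cbl-b-/-. In DKO 18 (52.9%) rose and 3 (8.82%) fell, beside 19.1% and 16.3% of all genes. Odc1, ornithine decarboxylase, was 81.0 ± 4.9 CPM in WT, 116 ± 3.9 in Cbl-/-, 79.7 ± 3.4 in the libraries labelled Cbl-b-/- and 171 ± 10 in DKO (SD, n = 3), which is a log2 rise of 0.51 in Cbl-/- (SE 0.06, adjusted p = 2.6e-05) and of 1.08 in DKO (SE 0.06, adjusted p = 1.7e-09). Srm, spermidine synthase (0.34, SE 0.07, adjusted p = 0.0058), and Mthfd1l, a mitochondrial folate enzyme (0.25, SE 0.06, adjusted p = 0.014), rose in Cbl-/-. In DKO Hspe1, a mitochondrial chaperone, rose (0.56, SE 0.07, adjusted p = 5.9e-06) and Ccnd2, cyclin D2, fell by 0.83 (SE 0.09, adjusted p = 1.9e-06). Leaving out WT 1, Cbl-/- 2 or Cbl-/- 3 lowered the Cbl-/- count of increases to 2, beside 3.23%, 3.71% and 3.52% of all genes.

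Markers of division and of other cells moved with these genotypes. Of 15 mitosis genes 14 (93.3%) rose in Cbl-/- and 6 (40%) in DKO, beside 5.68% and 19.1% of all genes called higher. Among them in Cbl-/- were Ube2c (0.47, SE 0.06, adjusted p = 4.4e-05), Ccnb2 (0.41, SE 0.06, adjusted p = 0.00017) and Aurka (0.39, SE 0.05, adjusted p = 9.2e-05). Among them in DKO were Ccnb1 (0.38, SE 0.06, adjusted p = 2e-04), Aurka (0.31, SE 0.05, adjusted p = 0.00028) and Ube2c (0.32, SE 0.06, adjusted p = 0.00046). Over the 15 the summed level was 2570 to 2620 CPM in WT, 3280 to 3320 in Cbl-/-, 2660 to 2760 in the libraries labelled Cbl-b-/- and 2450 to 2880 in DKO. Their median log2 fold change against WT was 0.35 in Cbl-/- and 0.08 in DKO, where 5 of the 15 were below 0. In DKO against Cbl-/- 9 were called lower and none higher, beside 13.6% of all genes called lower. Of 19 tested targets of p53, a factor that free ribosomal proteins are known to stabilise, 2 fell in Cbl-/- (Trp53inp1, -0.56, SE 0.09, adjusted p = 0.00054, and Zmat3, -0.27, SE 0.06, adjusted p = 0.0077), while 8 (42.1%) rose and 2 fell in DKO, with Mdm2, an inhibitor of p53, at 0.47 (SE 0.06, adjusted p = 9.8e-06), Phlda3 at 0.56 (SE 0.11, adjusted p = 7e-04) and Tnfrsf10b at 0.59 (SE 0.11, adjusted p = 0.00077). Set beside these p53 counts, 4.19% of all genes were called lower in Cbl-/-, and 19.1% higher and 16.3% lower in DKO. Zmat3 lost its call without WT 2 or Cbl-/- 1. The 7 neutrophil markers in the table, of 12 in the list, summed to 12.5 to 15 CPM in WT and 75.6 to 95.2 in DKO. Ly6g, Retnlg, Camp, Mpo and Elane were absent. Every gene in the table had a count in WT 1, so a neutrophil marker found only in DKO would be missing from this sum. The 9 monocyte markers summed to 60.1 to 66 CPM in WT, 89 to 97.5 in Cbl-/- and 162 to 218 in DKO. The 14 macrophage markers summed to 21400 to 23700 CPM in WT, 18800 to 19700 in Cbl-/- and 18100 to 21200 in DKO. By gene, 8 of the 14 (57.1%) were called lower and 2 (14.3%) higher in DKO than in WT, with a median log2 fold change of -0.37. The shares of all genes were 16.3% lower and 19.1% higher. In Cbl-/- 3 (21.4%) were called lower and 2 (14.3%) higher, beside 4.19% and 5.68% of all genes. The 2 B cell markers of 6 and the 2 T and NK cell markers of 8 that were in the table summed to at most 1.01 CPM. The part of all these lists in the members' changes was not tested.

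The use of strand in counting is not given, so reads of antisense neighbours could enter some values. Exons on the other strand overlap those of Tsr1 by 1240 bases (Srr), Noc2l by 598 (Samd11), Utp14a by 473 and Bysl by 361 (Ccnd3). Further members overlap by less, among them Heatr1 by 155 (Lgals8), Nop14 by 144 and Mybbp1a by 131 (Spns2). The calls of all members with such an overlap are uncertain in that respect.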

How the data were processed

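The authors deposited 1 table of read counts per gene for the 12 libraries, whole numbers without normalization, on build GRCm38.p5 (submitters' processing notes). Per the labels' protocols, the libraries were TruSeq stranded mRNA. The aligner, counter and strand setting were not given in the sources used here. Each of the 15555 genes has a count in WT 1, and 49 lack a symbol. Total counts were 21048103 to 43946503.

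All 12 libraries were fitted together in edgeR 4.0.16 (R 4.3.3), with filterByExpr (12671 genes tested, 2884 removed), TMM scaling, 1 mean per genotype and robust quasi-likelihood. Calls are at an adjusted p of 0.05, Benjamini-Hochberg over the 12671 genes. The 6 pairs of genotypes and a departure from additivity were tested, and the code was tested on simulated data. Alternatives changed the scaling (DESeq2 size factors, total counts), the filter (none, or at least 5 CPM in 3 libraries), the test (DESeq2 1.42.0, limma 3.58.1 voom with and without quality weights), the libraries fitted (each left out, or only the compared genotypes) and added the replicate number as a block. Removal of a spline of level on transcript GC content (5 degrees of freedom), with and without DKO 3, was chosen after seeing the data.

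The members and the other lists were chosen with earlier results of these data known. Values are given for Myc and, in each comparison and role, for up to 4 called members with the smallest adjusted p, or 1 where none passed, and for up to 3 genes of each pathway list; other members were named after their values were seen. Replicates of 1 genotype differed by more than sampling noise (chi-square per degree of freedom 3.93 to 55.3). Promoters are from RefSeq (GRCm38.p6) and gene positions from GENCODE. Dendritic cell, erythroid and megakaryocyte, stromal and endothelial, and progenitor and mast cell markers in DKO summed to 30.6 to 32.9, 29.1 to 33.6, 37.1 to 43.4 and 72.1 to 76.1 CPM, beside 16.4 to 19.7, 62.7 to 75, 27.6 to 32.9 and 74.2 to 88.7 in WT. In the same order, 6 of 8, 3 of 10, 7 of 9 and 5 of 8 genes of these lists were in the table.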

Additional observations from a re-analysis of the deposited data

Results flagged for a closer look

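Npm1 was higher in the libraries labelled DKO than the sum of the single-label effects predicts, by 0.36 on the log2 scale (SE 0.10, adjusted p = 0.021 by edgeR). It is listed here because the effect of the Cbl-b label differed between a WT and a Cbl-/- background in a test of that difference itself. The value was 0.23 to 0.43 over 22 alternatives, of which 18 passed the threshold.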

How the results depend on the processing

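No called result reversed direction under any alternative. The replicate numbers did not pair the samples (0 of 18 same-numbered pairs correlated over 0.1, with r from -0.05 to 0.05, and 3 of 12 libraries correlated best with their own number). With the replicate block the counts of members called were 5 in Cbl-/- against WT, 0 in Cbl-b-/- against WT, 30 in DKO against WT, 6 in DKO against Cbl-/-, 23 in DKO against Cbl-b-/-, 2 in Cbl-b-/- against Cbl-/- and 1 for additivity. Shares of all genes called in either direction were then 8.99%, 0.474%, 33.8%, 28.2%, 31.7%, 6.44% and 14.3% in that order. The main fit called 9.87%, 0.489%, 35.4%, 29.6%, 33.2%, 7.37% and 15.7% of all genes. These all-gene shares, in either direction, also follow each set of counts below, in the same order. In Cbl-/- against WT (7 called) the count was 26 with voom quality weights, 24 with only the compared genotypes, 14 with the GC trend removed, 18 with that and without DKO 3, and 3 to 5 when leaving out 1 library. Beside these, 29.2%, 22.5%, 14.9%, 16.8% and 5.7% to 7.58% of all genes were called. In Cbl-b-/- against WT (0) it was 1 with quality weights and 1 with the GC trend removed without DKO 3. All-gene shares were 1.75% and 1.31%. In DKO against WT (29) it was 15 with total counts, which also moved the calls over all genes from 2423 higher and 2062 lower to 1773 and 2873 (54% to 38.2% higher), and 21 to 29 leaving out 1 library. All-gene shares were 36.7% and 26.1% to 37.4%. In DKO against Cbl-/- (7) it was 2 with total counts, 18 with quality weights, 2 with only the compared genotypes, 4 with the GC trend removed without DKO 3, and 2 to 9 leaving out 1. Beside these, 32.4%, 42.2%, 23.9%, 33.8% and 22.1% to 33.8% of all genes were called. In DKO against Cbl-b-/- (24) it was 10 with total counts, 13 with only the compared genotypes, and 17 to 27 leaving out 1. All-gene shares were 37.5%, 22.4% and 27.2% to 35.4%. In Cbl-b-/- against Cbl-/- (4) it was 2 with total counts, 8 with DESeq2, 15 with quality weights, 10 with only the compared genotypes, 9 and 10 with the GC trend removed with and without DKO 3, and 0 to 5 leaving out 1. Beside these, 7.1%, 9.87%, 15.6%, 14.1%, 12.2%, 14.4% and 4.13% to 5.74% of all genes were called. For additivity (1) it was 2 with total counts, both lower, 2 with DESeq2, 6 with quality weights, 3 and 3 with the GC trend removed, and 0 to 4 leaving out 1. All-gene shares were 19.2%, 18.2%, 25.9%, 23.3%, 23% and 11.2% to 21.7%. Total counts moved the median of all genes by -0.07 in DKO against WT, -0.09 against each single label and -0.11 for additivity, where the members' median became -0.05. The cause of these differences was not tested. DKO 3 had the lowest quality weight, 0.12.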
